A study of Mus musculus with 11 samples.

Results

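The 10 genes described here, En1, En2, Otx1, Otx2, Lhx1, Lhx2, Lhx4, Lhx5, Lhx9 and Lmx1a, code for homeodomain transcription factors, and were taken by symbol from the 22619 named genes of a raw count table of SMB21 medulloblastoma cells. All 10 had a row. SMB21 is a cell line with a Ptch mutant background (strain Ptch1tm1Mps/J, adult), grown as neurospheres, so every library, controls included, carried that background. The groups were parental cells given sonidegib, an inhibitor of Smoothened, for 24 h (n = 2), Ofd1 mutant clones (n = 4 libraries of 3 clones), Sufu mutant clones (n = 2) and untreated parental cells (n = 3). Ptch1 is the Hedgehog receptor that holds Smoothened in check, Sufu restrains the Gli factors at the end of the pathway, and Ofd1 is a protein of centrioles and the base of the cilium. Both kinds of clone came out of a transposon screen of a drug resistance study. Whether drug was present at harvest is not stated in the labels. The Ofd1 libraries were clone R14 (replicates 1 and 2), R16 and R25, and the Sufu libraries were R13 and R1, so each clone other than R14 is a single library. The labels call the libraries of the parental line and of R14 biological replicates without naming separate cultures, so p-values measure the spread between these libraries.

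Patterning homeodomain factors divide the embryonic neural tube into territories. Engrailed proteins mark the junction of midbrain and hindbrain, from which the cerebellum forms. Otx proteins mark forebrain and midbrain, and the rear limit of Otx2 meets the Gbx2 domain at that junction. LIM-homeodomain proteins, which bind the cofactor Ldb1 through their LIM domains, give classes of neurons their identity. Among these, Lhx1 and Lhx5 are known from Purkinje cells, Lhx2 and Lhx9 from neurons of the Atoh1 lineage, Lhx4 from pituitary and motor neurons, and Lmx1a from roof plate, rhombic lip and midbrain dopaminergic neurons. The collective name of hindbrain patterning genes therefore covers several genes that are best known from other places.

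RefSeq promoter windows of build GRCm38.p6, each the 250 bases before a start site, were found for 7 of the 10 genes. En2, Otx1 and Lhx5 are named only. The 3 windows below belong to the gene that differed most between clones (En1), the gene that was higher in every Ofd1 library than in any other (Lhx4), and the member with Otx and homeodomain letters in its window (Otx2). They are printed 5′ to 3′ on the strand of the gene, and capitals mark TAATTA, a homeodomain core, and TAATCC or its reverse complement GGATTA, the core bound by Otx proteins. The En1 window lies at chr1:120602237-120602486 (plus strand), the Lhx4 window at chr1:155742028-155742277 (minus strand) and the Otx2 window at chr14:48665110-48665359 (minus strand).
En1: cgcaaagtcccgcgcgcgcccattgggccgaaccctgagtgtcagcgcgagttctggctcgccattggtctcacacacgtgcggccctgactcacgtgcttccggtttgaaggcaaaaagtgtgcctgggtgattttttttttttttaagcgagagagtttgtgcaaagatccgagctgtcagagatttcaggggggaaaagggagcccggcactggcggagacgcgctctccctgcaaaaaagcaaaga
Lhx4: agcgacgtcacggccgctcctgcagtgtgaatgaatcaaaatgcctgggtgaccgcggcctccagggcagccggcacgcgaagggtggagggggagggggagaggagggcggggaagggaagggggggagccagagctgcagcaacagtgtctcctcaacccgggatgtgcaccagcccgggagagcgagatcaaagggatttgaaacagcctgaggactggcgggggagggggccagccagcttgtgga
Otx2: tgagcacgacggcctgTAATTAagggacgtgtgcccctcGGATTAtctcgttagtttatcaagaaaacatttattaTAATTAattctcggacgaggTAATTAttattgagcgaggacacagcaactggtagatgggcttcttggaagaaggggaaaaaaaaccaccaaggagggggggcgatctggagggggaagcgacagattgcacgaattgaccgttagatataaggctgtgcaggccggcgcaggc
This Otx2 window held TAATTA 3 times and GGATTA 1 time, with no overlap between them. Of the other 3 Otx2 windows, 1 held TAATTA 1 time, and no window of En1, Lhx1, Lhx2, Lhx4, Lhx9 or Lmx1a held either motif. Over both strands, TAATTA was in 4.84% and TAATCC in 6.25% of 32851 windows of the same length. The Gli core GACCACCCA was in 0.225% of them and in no window of a member. The windows shown held 19 CpG dinucleotides for En1, 14 for Lhx4 and 14 for Otx2, beside a median of 6 over all windows. A match is a description of letters, and no binding was measured.

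Levels are given as CPM, each gene's count scaled to a common library total after scaling by TMM, a factor that lines up the bulk of genes between libraries. Library totals ran from 24308451 to 38241595 counts, so 3 counts, the limit that a count of 0 allows, stand for 0.0779 to 0.126 CPM in a single library. Such limits and intervals cover counting error only, since no molecular identifiers were used and PCR copies are not separate molecules. In bulk RNA, fewer cells of a type and less RNA per cell cannot be told apart. Parental replicates 1 and 2 and sonidegib replicate 1 stood apart on the second principal component of the 10941 genes that averaged at least 5 CPM. They lay at 27.4 to 37.1, against -24.8 to -3.84 for the other 8 libraries. Some of the members' values that rest on these outlying libraries are also given without them. On the first component, which held 42.6% of the variance against 17.3% for the second, sonidegib replicate 2 stood at 87.3 and replicate 1 at 28.3, against -23.1 to 1.49 for the other 9 libraries. The sonidegib pair also had the widest spread of all pairs of libraries within a group, an SD of 0.86 in log2 differences. Ofd1 transcripts were at 13.6, 23.4, 9.27 and 13.6 CPM in the Ofd1 clones and at 35.4 to 42.9 CPM in parental cells. They were at 42.6 and 40.3 CPM in Sufu clones R13 and R1. After sonidegib they were at 45.0 and 23.4 CPM, so sonidegib replicate 2 lay within the range of the Ofd1 clones. In the Sufu clones the Sufu transcript stood at 2.76 (R13) and 17.7 CPM (R1), against 27.7 to 29.6 CPM in parental cells. It was also at 12.02, 12.4, 15.7 and 19.2 CPM in the Ofd1 clones, a range that includes R1, and at 24.8 and 5.60 CPM after sonidegib, so the lower level was not particular to the Sufu clones. All 11 granule progenitor markers, Atoh1, Barhl1 and Zic1 among them, averaged at least 1 CPM. So did 4 of 7 astrocyte, 4 of 8 oligodendrocyte lineage and 1 of 6 endothelial markers, but none of 7 microglia and none of 6 fibroblast markers. The astrocyte markers summed to 506 to 879 CPM after sonidegib, 209 to 364 CPM in Ofd1 clones, 321 to 412 CPM in Sufu clones and 387 to 630 CPM in parental cells. The oligodendrocyte lineage markers summed to 60.9 to 90.1 CPM, 234 to 430 CPM, 202 to 486 CPM and 157 to 377 CPM in the same groups. The granule progenitor markers summed to 4191 to 4463 CPM after sonidegib, above every other library. They summed to 2185 to 2849 CPM in Ofd1 clones, 2008 to 2094 CPM in Sufu clones and 2314 to 2768 CPM in parental cells. The part of these marker sums in the members' values was not tested.

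Of the 10 genes, 8 averaged at least 1 CPM over the 11 libraries and passed the filter on low counts in every comparison. Per kilobase of exon, the scale on which genes can be ranked against each other, En2 was first in parental cells at 16.8 CPM per kb. Lhx1 followed at 13.1, Otx2 at 9.12, Lhx2 at 6.42, En1 at 5.35, Otx1 at 3.12, Lhx4 at 0.962 and Lhx9 at 0.325 CPM per kb. Lhx5 and Lmx1a were close to absent, at 0.0752 and 0.00882 CPM per kb. En2 was also the least variable, with a coefficient of variation of 12.1% over the 11 libraries. For Lhx9, the most variable of the 8, it was 92.1%, for En1 78.9%, for Lhx1 60.02% and for Lhx4 47.9%, beside a median of 23.6% over the 10941 genes at 5 CPM or more. Lhx9 itself, at a mean of 4.18 CPM, was not among those genes. Only 9.68% of those genes varied less than En2, while 97.8% varied less than En1. The plot of levels by library shows these differences in spread.

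**Figure D1:**
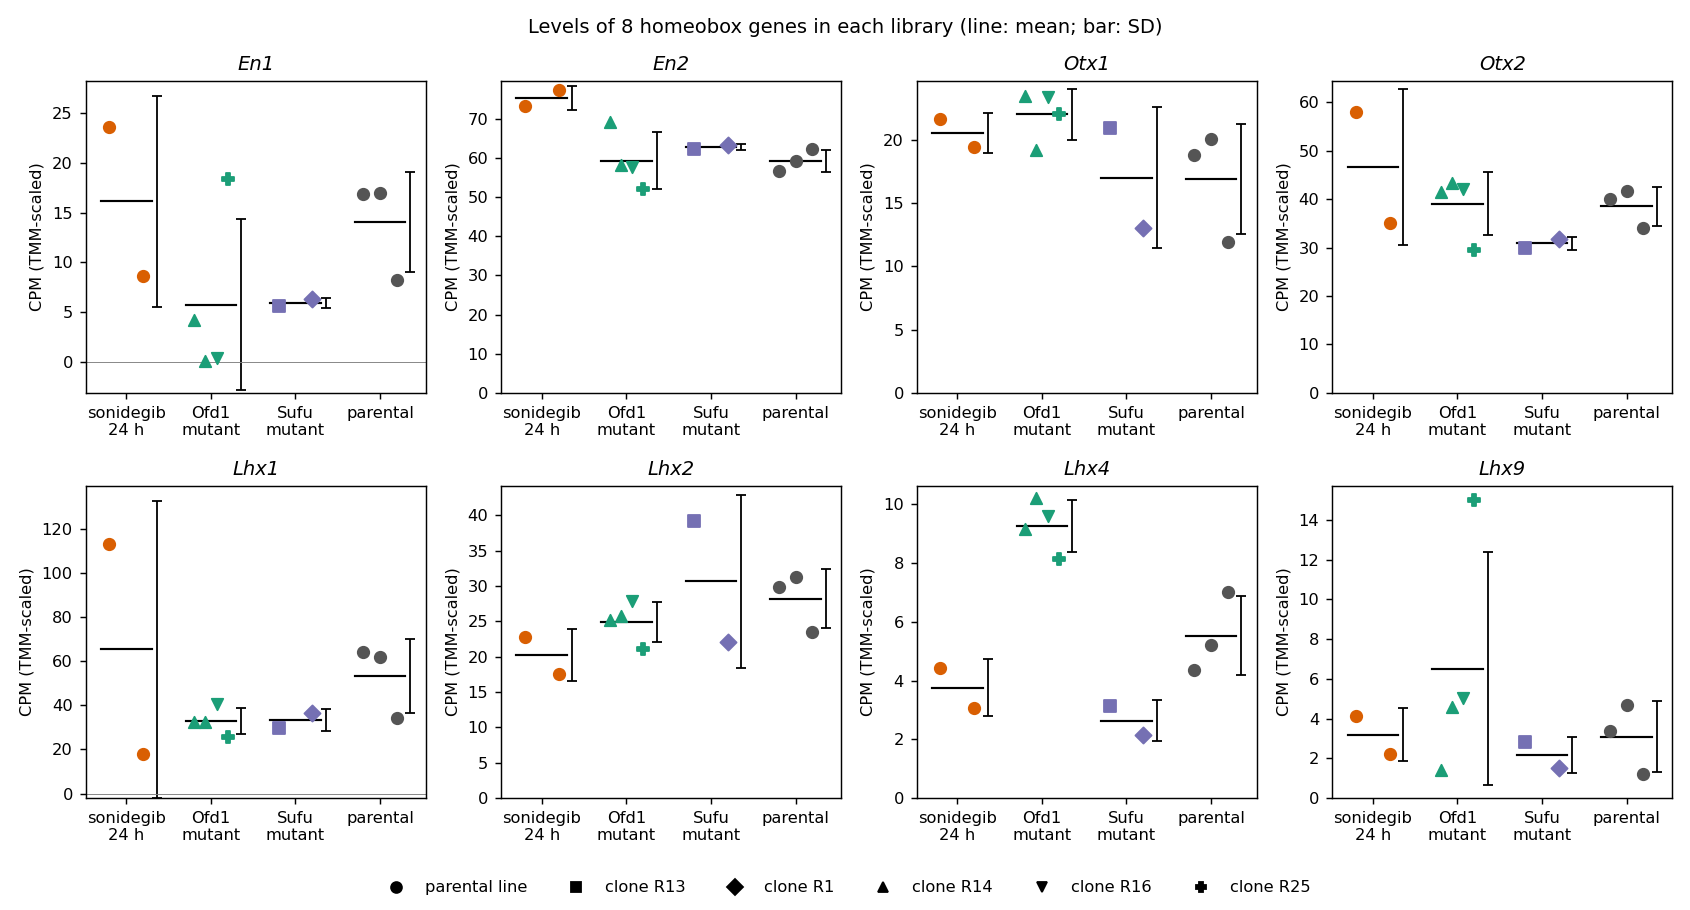
CPM (TMM-scaled) of the 8 members that averaged at least 1 CPM, 1 point per library, with groups from left to right sonidegib, Ofd1 mutant, Sufu mutant and parental, marker shapes for clones, a line for the mean and a bar for the SD. En2 lies between 52.1 and 77.4 CPM throughout, En1 spans 0.0619 to 18.3 CPM among Ofd1 libraries, and the 4 Ofd1 libraries hold the highest Lhx4 values.

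No member passed the edgeR quasi-likelihood test, at a Benjamini-Hochberg adjusted p under 0.05 over all genes tested, in any of the 4 comparisons. In sonidegib against parental cells 0 of the 8 tested members were called, where 0.0652% of 13809 genes were. An unadjusted p under 0.05 was held by 0 members and 1939 genes. In Ofd1 against parental cells 0 were called, where 0.363% of 13779 genes were, and an unadjusted p under 0.05 was held by 2 members, Lhx1 and Lhx4, and 1899 genes. For Sufu against parental cells the call rate of all 13854 genes was itself 0%, 0 members were called, and an unadjusted p under 0.05 was held by 2 members, En1 and Lhx4, and 1341 genes. In Ofd1 against Sufu clones 0 were called, where 0.00713% of 14026 genes were, and an unadjusted p under 0.05 was held by 1 member, Lhx4, and 1253 genes. DESeq2, as the alternative test, called 0 members in the sonidegib comparison, 1 in Ofd1 against parental (Lhx4), 0 in Sufu against parental and 1 in Ofd1 against Sufu (Lhx4). It called 5.64%, 5.50%, 2.25% and 2.00% of all genes it tested in those comparisons, in that order. Of the 8 tested members, 6 had a positive log2 fold change after sonidegib (median 0.23, beside 0.04 over all genes tested), 5 in Ofd1 against parental cells (0.02, beside 0.0079), 3 in Sufu against parental cells (-0.40, beside 0.0043) and 4 in Ofd1 against Sufu clones (0.14, beside -0.0033). The 3 comparisons with parental cells share their controls, and both comparisons of Ofd1 clones share those clones.

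**Figure D2:**
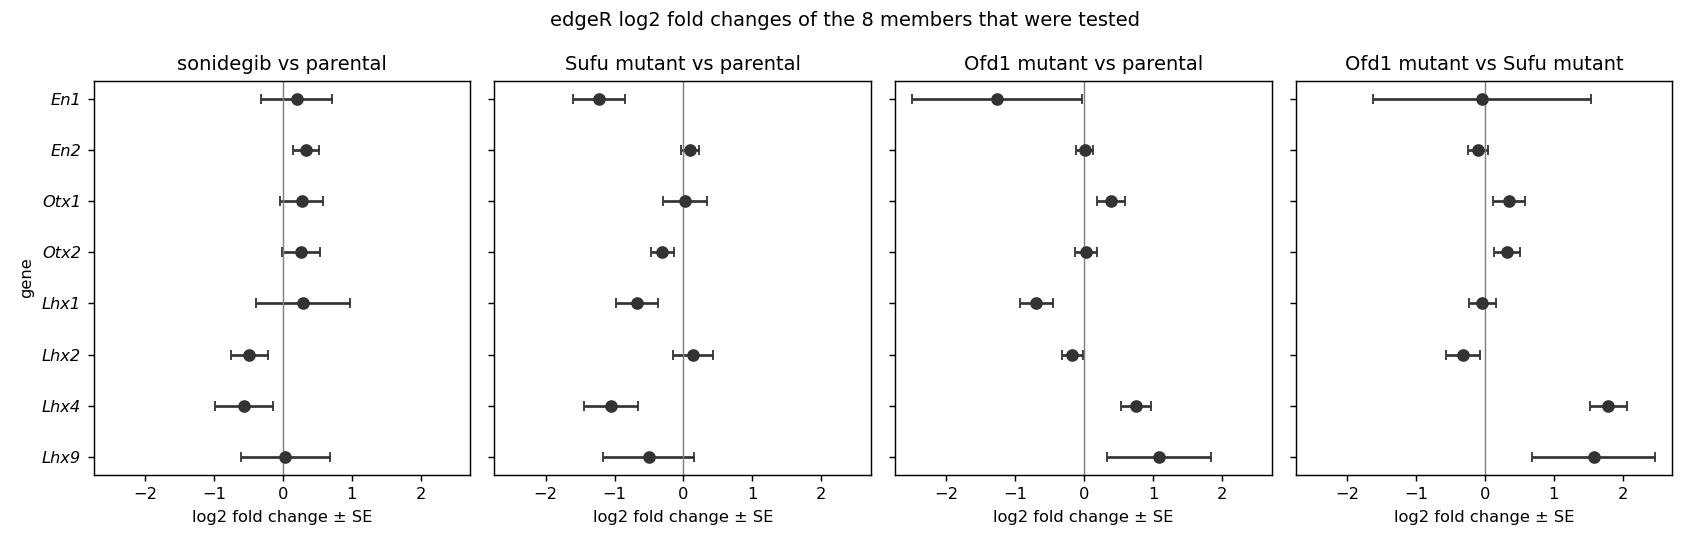
Log2 fold changes (first-named over second-named group, points) with standard errors (bars) from edgeR for the 8 tested members in each of the 4 comparisons; the horizontal axes are log2 units. Lhx4 stands at 1.79 in Ofd1 against Sufu clones and En2 lies within 0.34 of 0 in all panels, while the bars of En1 in the Ofd1 panels are the widest.

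The Engrailed pair behaved differently. En2 had 73.1 and 77.4 CPM after sonidegib, 69.3, 58.2, 57.7 and 52.1 CPM in Ofd1 libraries R14 replicate 1, R14 replicate 2, R16 and R25, 62.2 and 63.3 CPM in Sufu clones R13 and R1, and 56.6, 59.2 and 62.2 CPM in parental cells. Both sonidegib libraries were above the 3 parental ones, and the clones overlapped with parental cells. The log2 fold change of En2 was 0.34 ± 0.19 (SE) after sonidegib, with an edgeR adjusted p of 0.437, and it was 0.01 ± 0.12 in Ofd1 and 0.10 ± 0.13 in Sufu clones. The mean levels ranked sonidegib, Sufu, parental and Ofd1, and only sonidegib did not overlap with the next group.

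En1 had 23.7 and 8.64 CPM after sonidegib, 4.16 and 0.0619 CPM in the R14 libraries, 0.423 CPM in R16, 18.3 CPM in R25, 5.57 and 6.30 CPM in Sufu clones R13 and R1, and 16.9, 17.0 and 8.27 CPM in parental cells. It was thus lowest in R14 replicate 2 and R16, which held 2 and 13 reads, and above every parental library in R25, which held 707. The Ofd1 libraries thus overlapped with both the Sufu and the parental ones. Among the Ofd1 libraries the log2(CPM + 0.5) range of En1 was 5.07, and only 3 of the 10941 genes at 5 CPM or more had a wider one. These were Cstf2t, Mndal and 1810041L15Rik, named after their values were seen.

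The R14 libraries also differed from each other in En1, although they are the same clone. The ratio of replicate 1 to replicate 2 was 67.2, with a 95% exact counting interval of 18.3 to 561 from 134 and 2 reads. On the log2(CPM + 0.5) scale they differed by 3.05, and 4 of the 10941 genes differed by more between these libraries, namely Elavl4, Ndufa4l2, Chac1 and Dtx4 (named after their values were seen). For comparison, parental replicates 1 and 2 differed by 0.0054 in En1, but other replicates lay further apart. On that scale and relative to the parental mean, parental replicates 1, 2 and 3 stood at 0.328, 0.333 and -0.661. Sonidegib replicates 1 and 2 stood at 0.801 and -0.601. R25 held 43.4 times the En1 of R16 (interval 25.2 to 81.9). The fitted log2 fold change of En1 in Ofd1 against parental cells was -1.26 ± 1.23, with an edgeR adjusted p of 0.716, and against Sufu clones it was -0.05 ± 1.58 with an adjusted p of 0.978. Without R25 the En1 libraries of the Ofd1 group did not overlap with parental cells, and the value against parental cells was -3.17. With parental replicate 3 as the only control it was -0.50.

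In Sufu clones En1 was below all 3 parental libraries, at a mean of 5.94 ± 0.516 CPM (SD, n = 2) against 14.04 ± 5.00 CPM (n = 3). The log2 fold change was -1.23 ± 0.38, with an edgeR adjusted p of 0.443, so the difference did not pass the test. With parental replicate 3 as the only control it was -0.47, and without that replicate it was -1.50. En1 and Lhx4 were the only members past 2-fold with no overlap in that comparison, both lower, where 2.05% of all genes tested were lower in that way. In sonidegib against parental cells 0 members met that description (9.62% of all genes, either direction), in Ofd1 against parental cells 0 (3.56%) and in Ofd1 against Sufu clones 1, Lhx4 (1.55% of all genes, higher).

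Lhx4 gave the clearest separation between the classes of clone. It had 4.44 and 3.07 CPM after sonidegib, 9.16, 10.2, 9.59 and 8.12 CPM in Ofd1 libraries R14 replicate 1, R14 replicate 2, R16 and R25, 3.13 and 2.14 CPM in Sufu clones R13 and R1, and 4.37, 5.20 and 7.0 CPM in parental cells. Every Ofd1 library was above every other library, and both Sufu clones were below every parental library. Of all genes tested, 6.17% were higher without overlap in Ofd1 than in parental libraries and 9.85% in Ofd1 than in Sufu libraries. The mean was 9.27 ± 0.880 CPM (SD, n = 4) in Ofd1 and 2.63 ± 0.695 CPM (n = 2) in Sufu clones. Between them the log2 fold change was 1.79 ± 0.27, with an unadjusted p of 0.000279 and an edgeR adjusted p of 0.268, and DESeq2 gave an adjusted p of 1.18e-07. Over the alternatives of this comparison the log2 fold change of Lhx4 ran from 1.54 to 2.10 and its adjusted p from 1.18e-07 to 0.642.

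Against parental cells, Lhx4 in Ofd1 clones had a log2 fold change of 0.75 ± 0.22, with an edgeR adjusted p of 0.178 and a DESeq2 adjusted p of 0.0209. Its adjusted p ran from 0.0209 to 0.637 over the alternatives, and the log2 fold change was 0.41 against parental replicate 3 alone. In Sufu clones the value was -1.05 ± 0.39, with an edgeR adjusted p of 0.485, or -1.40 with parental replicate 3 as the only control. After sonidegib it was -0.56 ± 0.42, with an adjusted p of 0.527, and -0.13 within the 3 libraries that stood apart. The sonidegib and parental libraries overlapped. Within the Ofd1 group Lhx4 varied little, with a log2 range of 0.31 that 68.5% of the 10941 genes exceeded.

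Lhx9, a close relative of Lhx2, had 4.14 and 2.23 CPM after sonidegib, 1.43 and 4.58 CPM in the R14 libraries, 5.04 CPM in R16, 15.0 CPM in R25, 2.81 and 1.51 CPM in Sufu clones R13 and R1, and 3.39, 4.70 and 1.18 CPM in parental cells. R25 was the highest of all 11 libraries and the rest overlapped. It held 10.5 times the Lhx9 of R14 replicate 1 (95% exact counting interval 7.77 to 14.5), and R14 replicate 2 held 3.21 times the level of replicate 1 (2.29 to 4.57). The log2 fold change in Ofd1 against parental cells was 1.09 ± 0.76, with an edgeR adjusted p of 0.587. Without R25 it was 0.26, and with parental replicate 3 as the only control 2.47. Lhx2 had 22.8 and 17.6 CPM after sonidegib, 25.1, 25.7, 27.8 and 21.0 CPM in the Ofd1 libraries in the order used above, 39.3 and 22.01 CPM in Sufu clones R13 and R1, and 29.9, 31.3 and 23.4 CPM in parental cells. Its sonidegib libraries were just below the parental ones, with a log2 fold change of -0.49 ± 0.27 and an edgeR adjusted p of 0.435, and R13 was the highest library. En2 and Lhx2 were the only members with no overlap between sonidegib and parental cells, where 34.3% of all genes tested did not overlap.

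Lhx1 had 113 and 17.9 CPM in sonidegib replicates 1 and 2, 32.6, 32.4, 40.6 and 25.8 CPM in the Ofd1 libraries, 29.7 and 36.7 CPM in Sufu clones R13 and R1, and 64.2, 61.8 and 34.1 CPM in parental replicates 1, 2 and 3. The 3 highest values were those of sonidegib replicate 1 and parental replicates 1 and 2, the libraries that stood apart on the second principal component. Parental replicate 3 was within the range of the clones. The sonidegib libraries lay on either side of all parental libraries, 6.31-fold apart (95% exact counting interval 5.78 to 6.89). The fitted log2 fold change of Lhx1 after sonidegib was 0.30 ± 0.69, with an edgeR adjusted p of 0.850. It was -1.63 without sonidegib replicate 1 and 1.06 without replicate 2. Within the 3 libraries that stood apart, sonidegib replicate 1 was higher than parental replicates 1 and 2 by a log2 fold change of 0.82, a value that rests on a single treated library among libraries picked for standing apart and is given with no test.

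In Ofd1 against parental cells Lhx1 had a log2 fold change of -0.69 ± 0.24, with an edgeR adjusted p of 0.247, and in Sufu clones one of -0.67 ± 0.30, with an adjusted p of 0.547. Without parental replicate 3 the Ofd1 value was -0.94 with an adjusted p of 0.0389, and with that replicate as the only control it was -0.05. The Sufu value was -0.91 without parental replicate 3 and -0.03 with it as the only control. In the Ofd1 comparison the adjusted p ran from 0.0113 to 0.957 over the alternatives. Markers of Purkinje and other GABAergic cerebellar cells, where Lhx1 is known to act, were sparse, with 3 of 11 at a mean of 1 CPM or more. Their summed level was 29.7 to 37.2 CPM after sonidegib, 19.0 to 27.6 CPM in Ofd1 clones, 24.7 to 25.7 CPM in Sufu clones and 16.6 to 22.5 CPM in parental cells, and its part in the Lhx1 values was not tested.

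Otx2 had 58.0 and 35.2 CPM after sonidegib, 41.5, 43.2, 42.0 and 29.4 CPM in Ofd1 libraries R14 replicate 1, R14 replicate 2, R16 and R25, 29.9 and 31.8 CPM in Sufu clones R13 and R1, and 39.9, 41.6 and 34.0 CPM in parental cells. Both Sufu clones were below every parental library, as for En1 and Lhx4 and for 14.8% of all genes tested, and R25 was below the other Ofd1 libraries. The log2 fold change in Sufu clones was -0.31 ± 0.17, with an edgeR adjusted p of 0.607, or -0.13 with parental replicate 3 as the only control, and in Ofd1 clones it was 0.03 ± 0.16, with an adjusted p of 0.966. Otx2 is also expressed by choroid plexus epithelium, whose markers reached a mean of 1 CPM for 3 of 9 genes. Their summed level was 14.8 to 20.4 CPM after sonidegib, 20.6 to 34.8 CPM in Ofd1 clones, 29.7 to 54.1 CPM in Sufu clones and 29.4 to 57.7 CPM in parental cells. Ttr, the defining transcript of that epithelium, was at 0.200 CPM or less in every library.

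Otx1, a partner of Otx2 in forebrain and midbrain, had 21.7 and 19.5 CPM after sonidegib, 23.5, 19.2, 23.4 and 22.03 CPM in the Ofd1 libraries, 21.0 and 13.1 CPM in Sufu clones R13 and R1, and 18.8, 20.04 and 11.9 CPM in parental cells. All 4 groups overlapped. Its log2 fold change in Ofd1 against parental cells was 0.39 ± 0.20, with an edgeR adjusted p of 0.436. Over the alternatives it ran from 0.13 to 0.89. Parental replicates 1 and 3 lay below all 4 Ofd1 libraries, so the overlap there rested on parental replicate 2 alone. The antisense gene Otx2os1, whose exons overlap Otx2 on the other strand, did not exceed 0.340 CPM in any library. Whether reads were counted by strand is not given in the sources used here, so reads of Gm13584 and Gm27199, antisense to exons of Lhx2 and Lhx5 in GENCODE and without rows in the table, cannot be told apart from theirs. Nor can those of Gm49154, which overlaps exons of Otx2 on the same strand and has no row either.

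Lhx5 and Lmx1a were near the counting limit. Lhx5 had 57 counts in all 11 libraries together and 0.0295 to 0.367 CPM, with sonidegib replicate 1 highest at 11 counts and the groups overlapping. Lmx1a had 8 counts in all. It had 0 and 0.0596 CPM after sonidegib, 0 CPM in all 4 Ofd1 libraries, 0.0401 and 0.0840 CPM in Sufu clones R13 and R1, and 0.0633, 0.0265 and 0 CPM in parental cells. The 0 counts of the Ofd1 group, taken over its 4 libraries, allow a level of up to 0.0224 CPM. A difference in Lmx1a was not detectable at this depth. Unipolar brush cells, which carry Lmx1a and Otx2, had 2 of 6 markers at a mean of 1 CPM or more, roof plate 2 of 8, and midbrain floor 3 of 8, with Pitx3 and Slc6a3 at 0 in every library.

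Ranked by group mean, En1 stood at 16.1 CPM after sonidegib, 14.04 in parental cells, 5.94 in Sufu clones and 5.75 in Ofd1 clones, and of these neighbouring groups only parental and Sufu did not overlap. Lhx4 ranked at 9.27 CPM in Ofd1 clones, 5.52 in parental cells, 3.75 after sonidegib and 2.63 in Sufu clones, with only Ofd1 and parental not overlapping. Otx2 ranked at 46.6 CPM after sonidegib, 39.05 in Ofd1 clones, 38.5 in parental cells and 30.8 in Sufu clones, with only parental and Sufu not overlapping. For Otx1, Lhx1, Lhx2, Lhx5, Lhx9 and Lmx1a all groups next to each other in rank overlapped.

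En1, Lhx4, Lhx9 and Lmx1a all lie on chromosome 1, and the first 3 were therefore set beside their neighbours, the 10 genes on either side along the chromosome that were tested in the same comparison. This was added after the members' values were seen. Between Sufu and parental cells the median log2 fold change of the 20 genes around Lhx4 was -0.87, with 0 positive and 20 negative, beside -1.05 for Lhx4 itself. Around Lhx9 the median was also -0.87 (3 positive, 17 negative) and around En1 -0.55 (4 positive, 16 negative), where En1 had -1.23. All genes of chromosome 1 had a median of -0.13 in that comparison, and all genes tested 0.0043. The lower En1 and Lhx4 levels of the Sufu clones thus came with lower levels of the genes beside them, and the part of the region in these results was not tested.

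In Ofd1 clones Lhx4 and its neighbours went apart. Against parental cells the 20 genes around Lhx4 had a median log2 fold change of -0.30 (3 positive, 17 negative), where Lhx4 had 0.75. By library, as log2(CPM + 0.5) minus the parental mean, and with the 10 genes on either side that averaged at least 5 CPM as neighbours, Lhx4 stood at 0.70 and 0.85 in the R14 libraries, 0.77 in R16 and 0.54 in R25. Medians of its neighbours were -0.36, -0.39, -0.43 and -0.01 in the same libraries. Between Ofd1 and Sufu clones both were positive, Lhx4 at 1.79 and its neighbours at a median of 0.46 (19 positive, 1 negative).

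The median of the genes around En1 stayed closer to the parental mean than En1 did in R14 and R16. On the scale used for Lhx4, En1 stood at -1.57 and -4.62 in the R14 libraries and -3.91 in R16, and the medians of its neighbours were -0.25, -0.25 and -0.10. Of the 20 neighbours, 19, 19 and 13 were below the parental mean in these libraries. Of single neighbours, Tmem163 stood at -2.62, -3.03 and -2.37 in these libraries, below En1 itself in R14 replicate 1, and Dsel at -0.49, -1.83 and -1.98 (both named after their values were seen). Tmem163 was also at -1.63 in R25, -1.36 and -1.43 in Sufu clones R13 and R1, -1.40 in sonidegib replicate 2 and -1.29 in parental replicate 3. It was at 0.07 in sonidegib replicate 1 and at 0.93 and 0.36 in parental replicates 1 and 2. In R25, En1 stood at 0.44 and its neighbours at 0.31, and in Sufu clones R13 and R1 En1 stood at -1.19 and -1.03 with neighbours at -0.78 and -0.55. Parental replicate 3 was itself lower than replicates 1 and 2 in this region, with 20 of 20 neighbours of En1 and 20 of 20 neighbours of Lhx9 below the parental mean. Sonidegib replicate 2 was low there as well, with neighbour medians of -0.48 for En1 (18 of 20 below the parental mean), -1.07 for Lhx4 (17 of 20) and -0.71 for Lhx9 (15 of 20). The Lhx9 level of R25, 2.26 above the parental mean, came with a median of 0.37 for its neighbours and of 0.22 for all 596 chromosome 1 genes at 5 CPM or more, while the same chromosome median lay between -0.25 and 0.05 in the other 10 libraries. For Lhx1 on chromosome 11 the medians of its neighbours lay between -0.18 and 0.10 in all 11 libraries.

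**Figure D3:**
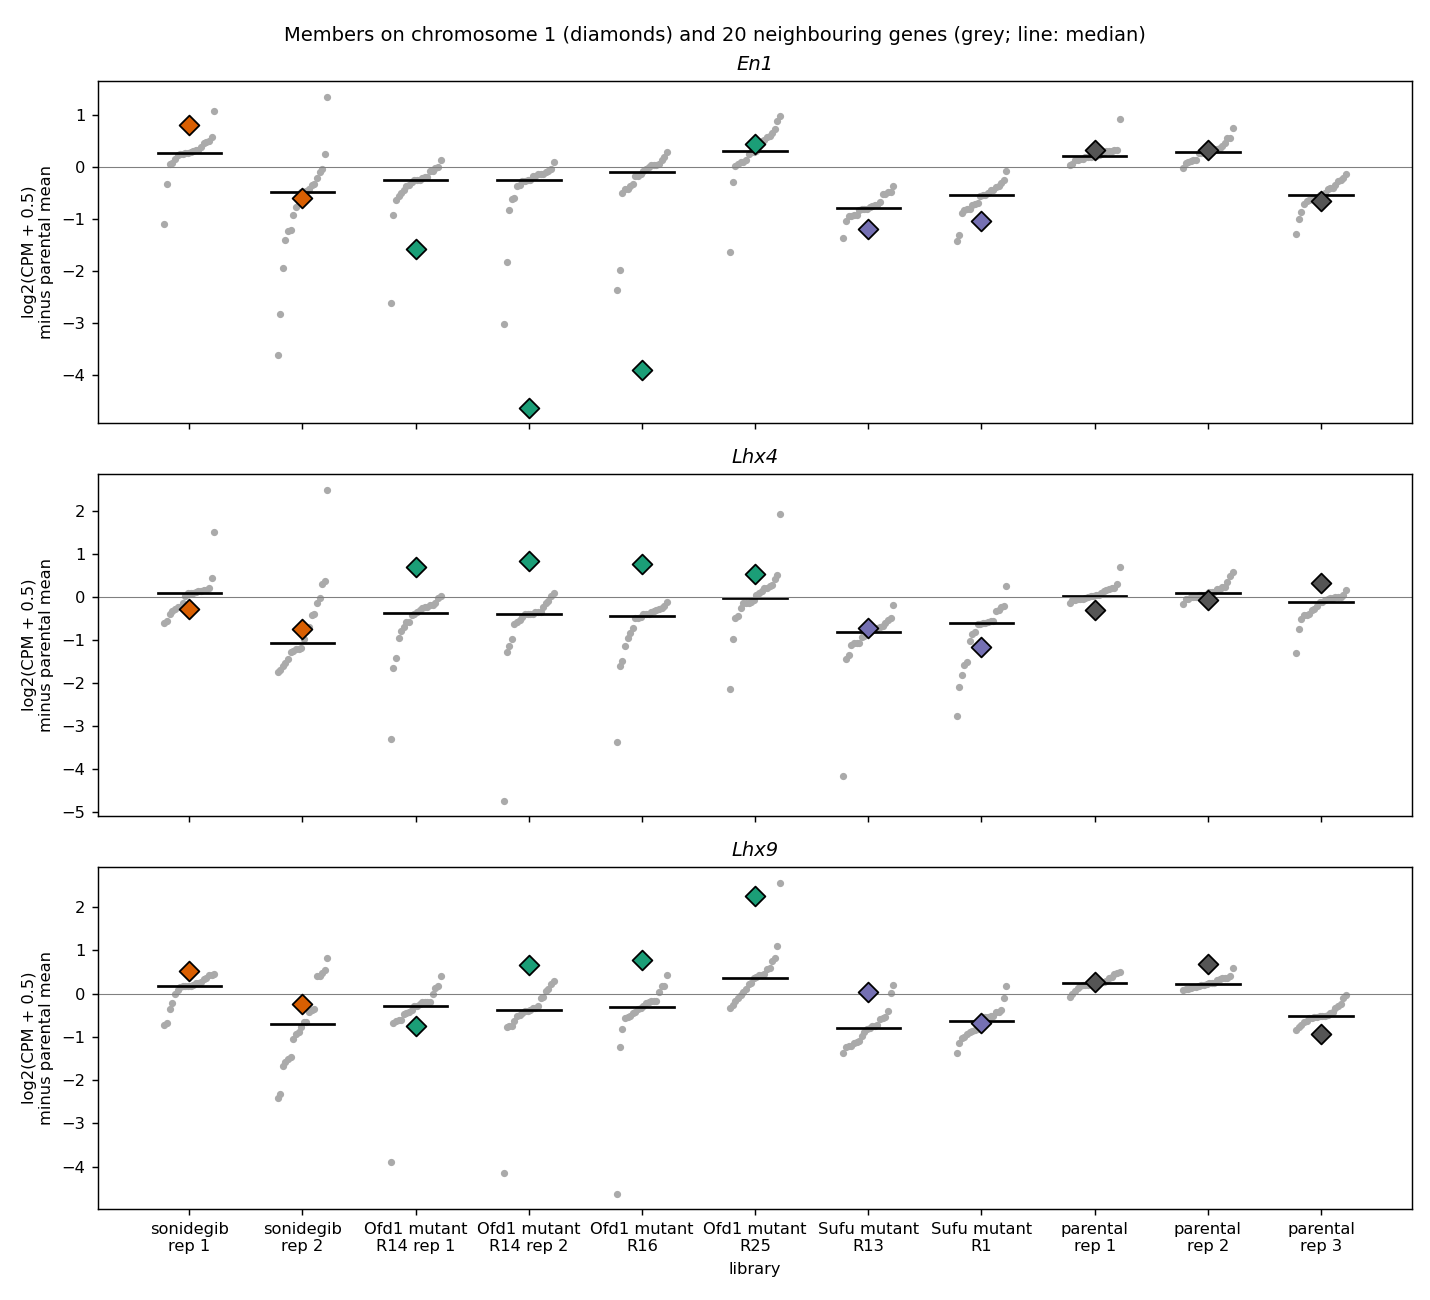
Log2(CPM + 0.5) of En1, Lhx4 and Lhx9 (diamonds) and of the 20 genes around each that averaged at least 5 CPM (grey points, line at their median) in each of the 11 libraries, as the difference from the mean of the 3 parental libraries. En1 lies far below the median of its neighbours in R14 replicate 2 and R16. Lhx4 lies above the median of its neighbours in all 4 Ofd1 libraries. En1 and the median of its neighbours lie below 0 together in R14, R16, both Sufu clones, sonidegib replicate 2 and parental replicate 3.

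Over the 11 libraries, the genes whose log2(CPM + 0.5) followed each member most closely were found by Pearson's r among the 10941 genes, as a description of libraries that share clones and depth. For En1 they were Zbtb6 (r = 0.93), Csrp1 (0.91) and Arl4c (0.90), the last pair on chromosome 1 like En1. For Lhx4 they were Slc19a2 (0.97), Rhobtb2 (0.92) and Iars2 (0.92), with Slc19a2 and Iars2 on chromosome 1. For Lhx1 they were Nlk (0.96), 0610010F05Rik (0.94) and Zfp62 (0.93), all on chromosome 11 as Lhx1 is. Rnmt, Clcn4-2 and Bzrap1 were nearest to En2, Igsf9, Wbp5 and Ipo13 to Otx1, Gprasp2, Apc and Paip2b to Otx2, and Morc3, Tshz2 and Mcph1 to Lhx2, with r between 0.86 and 0.93. Among these, only Tshz2 shared the chromosome of its member, and Clcn4-2, Bzrap1 and Wbp5 had no chromosome assigned. Of the 10941 genes, 596 were placed on chromosome 1 and 849 on chromosome 11. Among the members themselves the closest pair was Otx2 and Lhx1 (r = 0.74), and En1 and En2 had r = 0.16.

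Of 15 LIM-homeodomain relatives, LIM-only proteins and LIM cofactors, 12 were tested and edgeR called 0 in each of the 4 comparisons, with median log2 fold changes between -0.17 and 0.11. Unadjusted p was under 0.05 for 1 of them after sonidegib, 2 in Ofd1 and 2 in Sufu against parental cells and 0 in Ofd1 against Sufu clones, and DESeq2 called only Lmo1, lower in Sufu clones. Past 2-fold without overlap were 1 gene after sonidegib (Lhx3, lower), 0 in Ofd1 and 1 in Sufu against parental cells (Lmo1, lower) and 0 in Ofd1 against Sufu clones. Ldb1, the cofactor that joins LIM-homeodomain proteins into complexes, averaged 269 ± 10.4 CPM (SD, n = 2) after sonidegib, 175 ± 4.62 CPM (n = 4) in Ofd1 clones, 187 ± 4.02 CPM (n = 2) in Sufu clones and 203 ± 12.4 CPM (n = 3) in parental cells. Its partner Ssbp3 and the LIM-only protein Lmo4 lay between 86.6 and 144 CPM and between 63.9 and 101 CPM over all libraries. Lmo1, a LIM-only protein that competes for Ldb1, was singled out after its values were seen. It had 24.6 and 24.9 CPM in Sufu clones R13 and R1, against 71.9, 72.7 and 57.9 CPM in parental cells, with no overlap. Its log2 fold change there was -1.43 ± 0.17, with an edgeR adjusted p of 0.155 and a DESeq2 adjusted p of 1.24e-09.

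Homeodomain factors of the Engrailed kind work with Groucho corepressors and TALE partners, of which 13 of 14 genes were tested and 0 were called by edgeR in any comparison. Unadjusted p was under 0.05 for 3 after sonidegib, 1 in Ofd1 and 1 in Sufu against parental cells and 2 in Ofd1 against Sufu clones, and DESeq2 called 1, 0, 1 and 1 in the same comparisons. Only 2 genes were past 2-fold without overlap, Meis3 and Pbx4, both higher after sonidegib. The median log2 fold change of the 13 lay between -0.13 and 0.08. Meis1, a TALE partner, averaged 351 ± 36.7 CPM (SD, n = 2) after sonidegib and the corepressor Tle1 136 ± 10.9 CPM, against 242 ± 45.7 and 144 ± 19.2 CPM (n = 3) in parental cells, Meis1 without overlap and Tle1 with it. The log2 fold change of Meis1 was 0.53 ± 0.24, with an edgeR adjusted p of 0.377.

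Of the isthmic organizer, the signalling centre that Engrailed and Otx genes border, 3 of 11 genes averaged at least 1 CPM and edgeR called 0. Unadjusted p was under 0.05 for 1 of 5 tested genes after sonidegib (Gbx2), 1 of 4 in Ofd1 and 0 of 5 in Sufu against parental cells and 0 of 4 in Ofd1 against Sufu clones. Gbx2 after sonidegib was the only DESeq2 call and the only gene past 2-fold without overlap. The median log2 fold change was -1.14, 0.03, 0.48 and 0.08 in these comparisons, in that order. Fgf8, its secreted signal, had 1.30 and 5.42 CPM after sonidegib, 26.3, 53.4, 26.1 and 6.10 CPM in the Ofd1 libraries, 10.5 and 42.6 CPM in Sufu clones R13 and R1, and 3.99, 4.78 and 15.5 CPM in parental cells. Both kinds of clone and sonidegib overlapped with parental cells, while the sonidegib libraries were below every library of either kind of clone. The log2 fold change was 1.79 ± 0.72 in Ofd1 clones (edgeR adjusted p of 0.320). Gbx2, which opposes Otx2 at the isthmus, had 0.133 and 0.179 CPM after sonidegib, against 1.17, 1.19 and 0.975 CPM in parental cells. Its log2 fold change was -2.81 ± 0.58, with an edgeR adjusted p of 0.128 and a DESeq2 adjusted p of 0.0115. Il17rd, an antagonist of Fgf signalling, lay between 4.49 and 20.9 CPM with overlap. Pax2, which early isthmic cells carry, did not exceed 0.0591 CPM.

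Genes of the hindbrain segments were mostly under 1 CPM. Of 17 anterior Hox genes and rhombomere factors 4 averaged at least 1 CPM, and edgeR called 0 in each comparison. Unadjusted p was under 0.05 for 3 in Ofd1 and 3 in Sufu against parental cells and for 0 in the other comparisons, and DESeq2 called 2 in Ofd1 (Egr2 higher, Hoxc4 lower) and 1 in Sufu clones (Egr2 higher). Past 2-fold without overlap were Egr2, higher in both kinds of clone, and Hoxc5, lower in Sufu clones. The median log2 fold change of the tested ones was -0.04 after sonidegib, -0.97 in Ofd1 and -0.71 in Sufu against parental cells and 0.11 in Ofd1 against Sufu clones. Hoxc4 had 46.8 and 22.3 CPM after sonidegib, 17.4, 8.29, 9.01 and 10.98 CPM in the Ofd1 libraries, 16.5 and 19.9 CPM in Sufu clones, and 33.2, 41.8 and 14.9 CPM in parental cells, so its 3 highest libraries were the same 3 as for Lhx1, and parental replicate 3 lay within the range of the Ofd1 clones. Egr2, a factor of rhombomere identity, had 6.03 ± 0.143 CPM (SD, n = 2) in Sufu clones and 4.36 ± 2.24 CPM (n = 4) in Ofd1 clones, against 1.43 ± 0.195 CPM (n = 3) in parental cells. Neither difference passed edgeR, with adjusted p of 0.223 and 0.141, and DESeq2 gave 3.16e-05 and 0.0067. Clone R25, the one with the most Lhx9, had 6.38 CPM of Hoxa5 and 5.14 CPM of Meis2, where no other library exceeded 0.195 and 0.222 CPM, 2 genes singled out after their values were seen.

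Of 9 Iroquois, Gbx and Dmbx genes 5 averaged at least 1 CPM, led by Irx2 at 12.7 to 19.2 CPM and Irx5 at 7.97 to 14.5 CPM over all libraries, with Irx3 at 3.61 to 15.5 CPM. EdgeR called 0 of them and DESeq2 only Gbx2 after sonidegib, where Gbx2 and Dmbx1 were lower past 2-fold without overlap. Unadjusted p was under 0.05 for 2, 0 and 1 in sonidegib, Ofd1 and Sufu against parental cells and 1 in Ofd1 against Sufu clones, with median log2 fold changes of -0.13, 0.10, -0.21 and 0.44. Forebrain factors were present as well, with 7 of 16 at a mean of 1 CPM or more. EdgeR called 0, with 0, 3, 4 and 0 at an unadjusted p under 0.05 in the same comparisons and median log2 fold changes of -0.45, 0.51, 0.50 and -0.16. DESeq2 called 0, 1, 2 and 0, Dlx2 in Sufu clones among them. Dlx2 (higher) and Six3 (lower) in Sufu clones and Fezf1 (higher) in Ofd1 clones were among those past 2-fold without overlap from parental cells. Dlx1 lay between 12.6 and 48.6 CPM in all libraries. Dlx2 had 33.4 and 13.1 CPM in Sufu clones R13 and R1, against 4.94, 5.36 and 7.71 CPM in parental cells, with a log2 fold change of 1.97 ± 0.43, an edgeR adjusted p of 0.327 and a DESeq2 adjusted p of 0.00244. En2, Otx1 and Otx2 were detected together in every library, and the heat map of patterning genes shows them as even rows beside the uneven ones of En1, Lhx9, Fgf8 and Hoxc4.

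**Figure D4:**
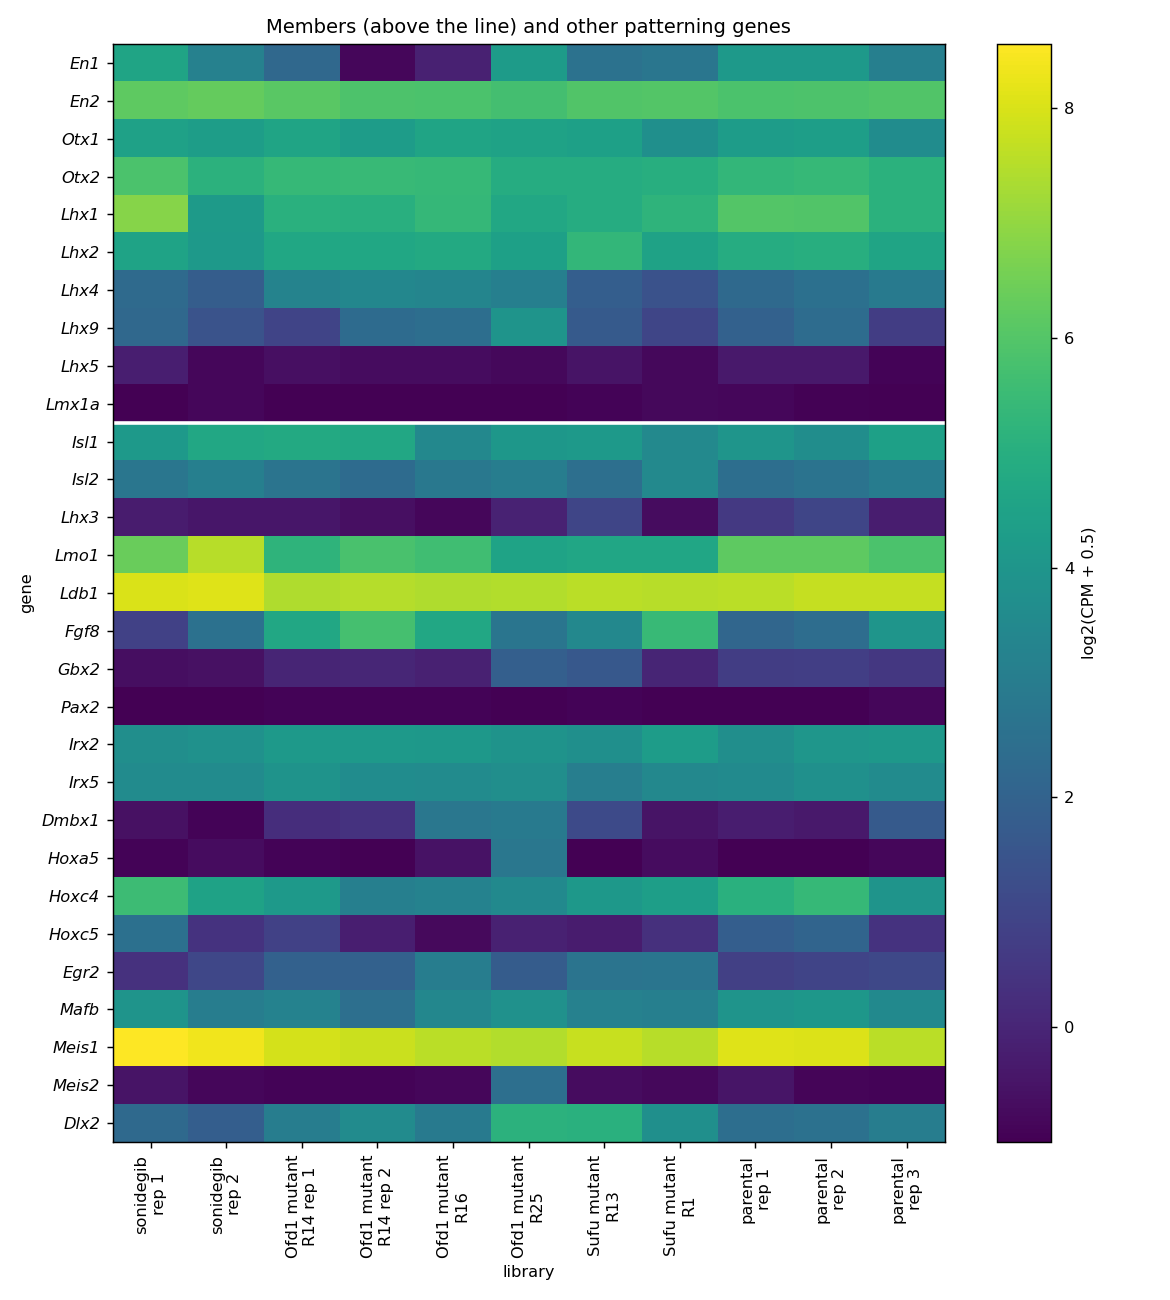
Heat map of log2(CPM + 0.5) in 11 libraries (columns) for the 10 members (above the white line) and selected genes of the patterning lists (below it); colours run from dark (low) to yellow (high). En2 is even over all columns, En1 is darkest in R14 replicate 2, Lhx5 and Lmx1a are dark throughout, and Hoxa5 and Meis2 are brighter in R25 than in any other column.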

How the data were processed

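Poly(A) RNA libraries (stranded kit, 500 ng of RNA, 75 bp single-end reads, 1 instrument run) were sequenced per the labels' protocols. The authors deposited raw counts of reads per gene symbol in 1 table of 22620 entries. The entry without a name, 0.0131% to 0.0192% of the counts of a library, was left out. STAR, DESeq2 and build mm9 are named per the submitters' processing notes, and neither the counting tool with its strand setting nor the annotation or any version is given in the sources used here. Samples were grouped by the labels.

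From the counts, each pair of groups was compared by a quasi-likelihood fit (edgeR 4.0.16 with limma 3.58.1 in R 4.3.3; robust, TMM, filterByExpr) on the libraries of both groups, two-sided, with Benjamini-Hochberg adjustment over all genes kept and a threshold of 0.05. Standard errors were the log2 fold change divided by the root of F. DESeq2 1.42.0 was an alternative test. Other alternatives were other size factors, no filter, each library left out, 1 model over 11 libraries, R14 libraries summed, a replicate block and subsets of the libraries that stand apart. CPM use TMM-scaled totals, and log2 values per library add 0.5 CPM. Counting intervals are exact and conditional on the total of both counts. Chromosomes, gene order and exon lengths came by symbol from GENCODE for GRCm38, another build than that of the counts, so no gene positions are given. Promoter windows are from RefSeq, GRCm38.p6.

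The procedure was tested on simulated data. The members, the lists of patterning and marker genes and the tests were chosen with earlier results of these data known. Of each list the up to 3 genes with the highest mean CPM were named where edgeR called none, together with genes singled out in the text. Some genes of these lists are counted but not reported here by name.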

Additional observations from a re-analysis of the deposited data

Results flagged for a closer look

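Otx2 in Ofd1 clone R25 stood at 29.4 CPM, away from the other 3 Ofd1 libraries at 41.5, 43.2 and 42.0 CPM. The gap to the nearest of them was 0.876 of the whole range of the group, above Dixon's 95% critical value for 4 samples. Chance flags about 1 in 20 groups of independent samples, and 8 were examined, 1 for each member at a mean of 1 CPM or more, in the only group of 4 libraries. These 4 libraries come from 3 clones, with R14 entered as replicates 1 and 2. They are thus not independent samples, as the critical value and the rate assume. The 20 genes around Otx2 on chromosome 14 that averaged at least 5 CPM had a median of -0.41 in R25 on the log2(CPM + 0.5) scale against the parental mean, where Otx2 had -0.38, and medians of -0.23, -0.13 and -0.18 in the other Ofd1 libraries, where Otx2 had 0.11, 0.17 and 0.13. Their part in the Otx2 value was not tested.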

How the results depend on the processing

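Of 368 values of members' log2 fold changes under alternatives, 330 kept their direction and their side of the threshold, 6 passed it and 32 changed sign. Of the member counts, 66 of 82 stayed within 1.5 times the reported one. Changes were as follows, and unless named the cause was not tested. The sonidegib comparison called 1 member, Lhx1, when restricted to the 3 libraries that stand apart (parental replicates 1 and 2, sonidegib replicate 1), a fit with 1 treated library among libraries picked for standing apart, so that this call is no test of the drug, and leaving out single libraries gave 0 to 1 separated members. In Sufu against parental cells leaving out single libraries gave 1 to 2 separated members, and parental replicate 3 as the only control gave 1, Lhx4. In Ofd1 against parental cells the member calls were 0 to 1 on leaving out single libraries and 1 by DESeq2, and separated members were 0 to 1, or 1 (Lhx9) with parental replicate 3 as the only control. In Ofd1 against Sufu clones DESeq2 called 1 member, and separated members were 1 to 2 on leaving out libraries, 2 without a filter (Lhx4 and Lmx1a) and 2 with the R14 libraries summed (Lhx4 and Lhx9).

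Replicate numbers are shared only as numbers, since the labels name no common batch. As deviations from their group means, same-numbered sonidegib and parental libraries correlated at 0.25 and -0.33. These values cannot decide on a pairing, because the deviations of the sonidegib libraries, only 2 in number, mirror each other by construction. With the replicate block the sonidegib values were -0.25 for En1, -0.49 for Lhx1 and -0.40 for Lhx9, each of the opposite sign, and Ofd1 (R14) against parental cells called 2 members, Lhx1 and Lhx4, with Lhx9 at -0.60. Over all genes the block gave 97 calls for sonidegib and 1600 for Ofd1, in place of 9 and 50. No paired analysis was possible for Sufu clones because their numbers follow accession order.

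Signs also turned on leaving out single libraries, where log2 fold changes ran as follows. In the sonidegib comparison En1 ran from -0.75 to 0.73, Otx2 from -0.18 to 0.57, Lhx1 from -1.63 to 1.06 and Lhx9 from -0.52 to 0.45. In Sufu against parental cells Otx1 ran from -0.37 to 0.32 and Lhx2 from -0.35 to 0.49, and Lhx9 was 0.88 with parental replicate 3 as the only control. In Ofd1 against parental cells En2 ran from -0.072 to 0.061 and Otx2 from -0.068 to 0.138. With the R14 libraries summed En2 was -0.035 and Otx2 -0.021, and with parental replicate 3 as the only control En2 was -0.065 and Lhx2 0.093. In Ofd1 against Sufu clones En1 ran from -1.95 to 0.37 (0.23 with R14 summed), Lhx1 from -0.18 to 0.12 and Lhx2 from -0.68 to 0.16.

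Counts over all genes moved more. For sonidegib 9 calls became 109 without a filter, 733 by DESeq2, 316 in 1 model, 1393 in the libraries that stand apart, and 0 to 3263 on leaving out libraries. For Ofd1 against parental cells 50 became 84 without a filter, 755 by DESeq2, 9 in 1 model, 1 with R14 summed, 0 with parental replicate 3 as the only control and 0 to 329 on leaving out libraries. For Sufu against parental cells 0 became 3 without a filter, 305 by DESeq2 and 0 to 11 on leaving out libraries, and for Ofd1 against Sufu clones 1 became 2, 275 and 0 to 11, and 0 with R14 summed. With 2 to 4 libraries a group, only large and even differences pass, and Lhx5 and Lmx1a were too low to be tested.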
